A study of Mus musculus with 116 samples.

Results

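The cytosolic ribosomal protein genes encode the proteins of the small and large ribosomal subunits. They were taken as every tested probe whose platform symbol starts with Rpl or Rps and a digit, or is Rplp0, Rplp1, Rplp2 or Rpsa. Ribosomal S6 kinases, pseudogene symbols and probes with several symbols were left out. The rule found 79 probes of 71 symbols among 21797 tested probes and 15097 symbols. By class there are 31 probes of the small subunit, 44 of the large subunit and 4 of the stalk. It used no measured value. It also takes in Rps19bp1, which encodes a binding protein of Rps19, and Rps23rg1, a retroposed copy of Rps23, neither of which is itself a ribosomal protein.

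Ribosomal proteins are made in near-equal amounts, because each occurs once or a few times in a ribosome. Their messages begin with a terminal oligopyrimidine tract, through which mTORC1 and Larp1 control translation, so their synthesis is regulated largely on the polysome and their mRNAs are often used as stable references. In blood cells they are known for the anaemias caused by loss of single members, and for free Rpl5 and Rpl11, which bind Mdm2 and so link faulty ribosome assembly to p53.

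RNA came from FDB1, a factor-dependent myeloid cell line of the mouse. Parental cells at 0 hours had grown in 500 U/mL of mouse IL-3 with 10% fetal calf serum, and were then washed 3 times and kept in 500 U/mL of mouse GM-CSF for 6, 12, 24, 48 or 72 hours. Cells expressing the V449E or the FI-Delta mutant of the GM-CSF receptor grew in the same IL-3 medium, were washed in the same way, and were sampled at 0 hours and after the same times with no factor. The promoter that drives the mutants, and whether a line is 1 clone, are not given in the sources used here. Each of the 18 conditions has 2 replicates, so 36 RNAs, hybridised in 58 dye-swap pairs on 116 two-channel spotted arrays. Whether replicates came from separate cultures is not given, and p-values here cover the spread between these samples alone, which may be technical.

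A level below is a log2 value relative to the mean of the 18 RNAs of the same replicate, so levels compare conditions for 1 probe and never 1 gene with another. Differences are given as log2 too, with the standard error (SE) from limma (n = 2 RNAs per condition). The words "rose", "fell", "passed" and "called" mean an adjusted p under 0.05 over all 21797 probes. Shares of all probes that rose, fell or were called are at that threshold. Counts of members at an unadjusted p have no share of all probes at the same threshold beside them. Such a count cannot be set against the adjusted share printed with it. All 36 RNAs were fitted together, so a probe has 1 SE for every difference of 2 conditions. That SE does not measure the spread of the RNAs compared. The levels were tested as independent and equally precise, although they come from shared arrays. Cy5 was taken as the numerator of the deposited ratios, a likely reading that no source states. Print run 2 holds 26 of the arrays, among them every replicate 2 array of the GM-CSF course. The labelled cell type was checked on marker lists: the macrophage list averaged -0.47 and -0.71 in the 2 parental RNAs at 0 hours and 0.26 and 0.17 after 72 hours in GM-CSF, while the 5 lymphoid probes averaged between -0.10 and 0.06 in all 36 RNAs. These are relative levels, so they do not show that a marker was absent. In RNA of whole cultures, fewer cells of a type and less RNA per cell cannot be told apart.

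Of the 71 symbols, 59 were matched in the RefSeq promoter table (GRCm38.p6), with 71 listed starts. The windows below run from 60 bases before the most upstream listed start to 20 bases into the transcript, with the longest run of C and T in capitals, since a tract of these bases at the start marks such messages. In Rps23, Rpl37a and Rpl19 2 runs have that length, and the one nearer the transcript is in capitals. The first set is shown because these 5 genes rose together in V449E cells.

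Rps23 (chr13:90923062-90923141, + strand): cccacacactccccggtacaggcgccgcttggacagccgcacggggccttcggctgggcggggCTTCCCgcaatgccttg
Rps24 (chr14:24490618-24490697, + strand): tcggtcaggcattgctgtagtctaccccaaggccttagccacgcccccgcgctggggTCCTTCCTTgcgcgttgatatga
Rpl37a (chr1:72711200-72711279, + strand): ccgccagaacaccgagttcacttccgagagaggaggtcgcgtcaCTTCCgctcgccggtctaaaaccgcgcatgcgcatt
Rpl19 (chr11:98026650-98026729, + strand): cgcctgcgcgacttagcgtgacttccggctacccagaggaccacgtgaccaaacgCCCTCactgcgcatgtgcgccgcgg
Rpl27 (chr11:101442185-101442264, + strand): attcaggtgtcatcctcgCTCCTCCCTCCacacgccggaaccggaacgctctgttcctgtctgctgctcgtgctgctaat

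The second set belongs to some of the genes that fell in FI-Delta cells at 72 hours. Rpl3, Rpl22, Rps26 and Rps19bp1 also fell there and are not shown. Rpl23 fell on probe 1 and not on probe 2.

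Rpl4 (chr9:64173327-64173406, + strand): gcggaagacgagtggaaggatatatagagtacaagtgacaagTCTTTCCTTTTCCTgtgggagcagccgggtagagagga
Rpl11 (chr4:136053374-136053453, - strand): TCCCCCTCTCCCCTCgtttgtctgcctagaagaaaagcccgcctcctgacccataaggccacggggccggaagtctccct
Rpl15 (chr14:18270967-18271046, - strand): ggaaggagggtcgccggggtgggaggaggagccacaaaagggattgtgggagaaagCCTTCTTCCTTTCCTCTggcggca
Rpl22l1 (chr3:28805448-28805527, + strand): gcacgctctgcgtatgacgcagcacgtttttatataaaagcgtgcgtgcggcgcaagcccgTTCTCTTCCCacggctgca
Rpl23 (chr11:97782420-97782499, - strand): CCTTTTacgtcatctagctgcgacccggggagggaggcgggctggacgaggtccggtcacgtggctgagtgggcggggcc

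A C followed by at least 5 bases of C or T, within 20 bases on either side of the listed start on the gene's strand, was present in 38 of the 71 member promoters (53.5%), against 29.4% of all 32851 promoters in the table. The ETS core CCGGAAG, searched on both strands of the 300-base window, was present in 26 of 71 (36.6%) against 8.86% of all. AAGATGG, the YY1 motif, was in 14.1% against 6.34%, the E-box CACGTG in 11.3% against 7.15%, and TATAAA in 9.86% against 13.6%. That window runs from 250 bases before the listed start to 50 bases after it. Among the 5 genes of the first set only Rpl19 carries CCGGAAG in the 300-base window of its most upstream start. Among the second set Rpl11 and Rpl15 do. In Rpl15 the motif lies outside the shorter window printed above. The listed start need not be the one used in these cells. In the windows printed above, the capitals cross or follow the listed start in Rps23, Rps24, Rpl15 and Rpl22l1. They lie upstream of it in the other 6. In Rps23 the other run of equal length lies upstream of the start.

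Over the whole study the ribosomal protein probes varied about as much as the array's other probes. The median level of the 79 probes ran from -0.09 after 72 hours in GM-CSF (replicates -0.09 and -0.09) to 0.08 in V449E cells at 12 hours (replicates 0.09 and 0.07). The median SD of a member over the 36 RNAs was 0.11, the same as that of all tested probes. The widest spread belonged to Rps23, a protein of the decoding centre (SD 0.32), followed by Rpl22l1 (0.27), Rps3 (0.22) and Rps27l (0.22). Rpl7a (0.046) and Rpl6 (0.053), both of the large subunit, were among the least variable.

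**Figure D1:**
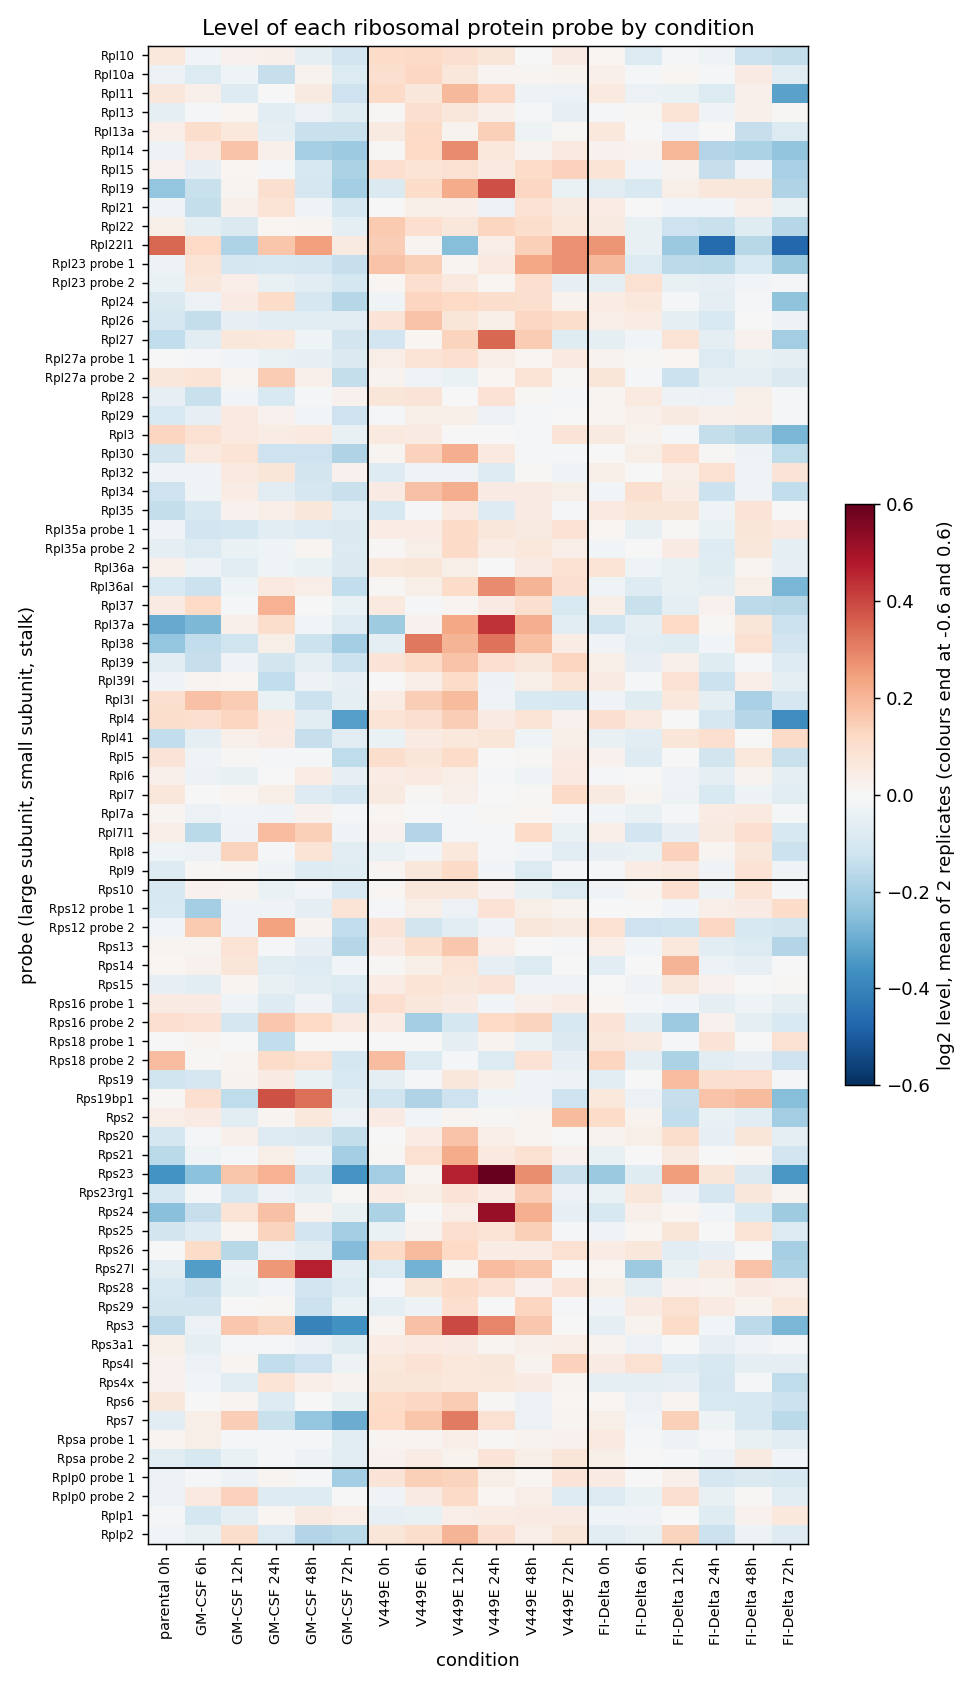
Colour shows the log2 level (mean of 2 replicates) of each of the 79 probes (rows, by subunit) in the 18 conditions (columns). Most rows are pale, and the 2 strongest colours are Rps23 and Rps24 at V449E 24 h, with Rpl22l1 at FI-Delta 72 h next at -0.47.

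The members did not move as 1 block. Over the 36 levels the median Pearson correlation of 3081 pairs of probes was 0.24, from -0.59 to 0.92, and 39 of 79 probes had a correlation above 0.5 with the median of the others. These are descriptions, since the RNAs share arrays, time courses and a common centring. Rpl39 (0.85) and Rpl27a probe 1 (0.84) followed the median most closely, while Rps16 probe 2 (-0.18) and Rps19bp1 (-0.14) did not. Outside the family, the levels most like the median member were those of Gm6607 (r = 0.90), Setdb1 (0.88), the elongation factor gene Eef1b2 (0.87), Cops5 (0.87) and Ace (0.86), over 36 RNAs.

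8 of the symbols have 2 probes, and these pairs bear on how far 1 probe speaks for its gene. The correlation of the 2 probes was 0.65 for Rpl35a, 0.28 for Rpl27a, 0.19 for Rpsa and 0.12 for Rpl23, and between -0.17 and -0.01 for Rplp0, Rps16, Rps18 and Rps12. In 4 of the pairs (Rpl23, Rpl27a, Rps12 and Rps16) probe 2 carries an accession of 1 numbered GenBank series, as does the Rpl32 probe. What these 5 probes were designed on is not given in the sources used here, so whether they read the messenger is unknown. The array also holds 48 control spots that carry the symbols of 24 members, left out here. Their correlation with the member probe of the same gene had a median of 0.096, from -0.56 for a spot of Rps26 to 0.76 for a spot of Rps7. A value below is therefore that of a probe.

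The first comparison asks what moving parental cells from IL-3 to GM-CSF changes. For the ribosomal proteins it changed few probes. After 72 hours Rpl4, which lines the exit tunnel, and Rps26, which sits at the messenger exit site, fell, and no member rose, where 2.92% of all probes rose. That is 2 of 79 probes (2.53%), against 2.55% of all tested probes that fell, so the family's share was that of the array. The median difference was -0.06 over the members (replicates -0.07 and -0.02) and 0.01 over all probes.

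Rpl4 stood at 0.20 and 0.01 in the 2 parental RNAs at 0 hours, and at -0.39 and -0.27 after 72 hours. The groups did not overlap, and the difference was -0.44 (SE 0.09, adjusted p = 0.0040 by limma), a 1.35-fold fall. Rps26 stood at 0.03 and -0.03 before and at -0.28 and -0.24 after, a difference of -0.26 (SE 0.07, adjusted p = 0.029 by limma). On the arrays of print run 1 alone the replicate 1 difference of Rpl4 was -0.59, and on those of print run 2 the replicate 2 difference was -0.15. Rps18 probe 2 (-0.29, adjusted p = 0.097) and Rpl22l1 (-0.29, adjusted p = 0.31) did not pass in limma. Without the replicate 1 parental RNA no member passed, and without any other of the 4 RNAs 1 did. Over the same time 6 of 9 macrophage probes rose and 0 fell, and 4 of 7 mast cell and basophil probes fell and 0 rose. Of 9 neutrophil granule probes 2 rose and 0 fell, and the list averaged 0.10 and 0.50 before and 0.59 and 1.30 after. Of 11 progenitor probes 3 rose and 0 fell, of 4 erythroid probes 1 fell, and of 5 lymphoid probes none passed. The part of these in the result was not tested.

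At earlier times in GM-CSF the members called were single probes. None passed at 6 hours by limma (1 higher and 2 lower at an unadjusted p under 0.05, where 0.44% of all probes were called) or at 24 hours (11 higher and 1 lower, where 1.1% were called). At 12 hours Rpl22l1, the paralog of Rpl22, fell by 0.53 (adjusted p = 0.042 by limma, replicates -0.84 and -0.23), where 1.7% of all probes fell. At 48 hours Rps27l, the paralog of Rps27 and a known p53 target, rose by 0.54 (SE 0.12, adjusted p = 0.021 by limma, replicates 0.56 and 0.51), where 0.748% of all probes rose. At 72 hours its difference was 0.0080 (SE 0.12).

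Later times of each course were also compared with its 12 and 24 hours. In GM-CSF, from 12 to 72 hours 5 of 79 fell, where 2.99% of all probes fell: Rps3, of the messenger entry site (-0.53), Rpl4 (-0.46), Rps7 (-0.45), Rpl30 (-0.26) and Rpl8 (-0.20). From 24 to 72 hours in GM-CSF 4 fell, where 2.07% of all probes fell, namely Rps3 (-0.50), Rps19bp1 (-0.45), Rpl4 (-0.39) and Rps12 probe 2 (-0.39, of the same GenBank series). No member rose in either GM-CSF stretch by limma, where 3.96% and 0.803% of all probes rose, nor was any higher at an unadjusted p under 0.05. In V449E cells the same stretch from 12 hours lowered Rps3 (-0.40, adjusted p = 0.0498 by limma), where 0.826% of all probes fell. From 24 hours in V449E cells no member passed by limma, where 0.0229% of all probes were called. At an unadjusted p under 0.05, 1 member was higher there and 7 were lower. In FI-Delta cells the stretch from 12 hours lowered Rps3 (-0.38), Rpl4 (-0.38), Rps7 (-0.30), Rpl3 (-0.27) and Rpl8 (-0.27), where 1.97% of all probes fell. From 24 hours it lowered only Rps19bp1 (-0.43), where 1.9% fell.

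**Figure D2:**
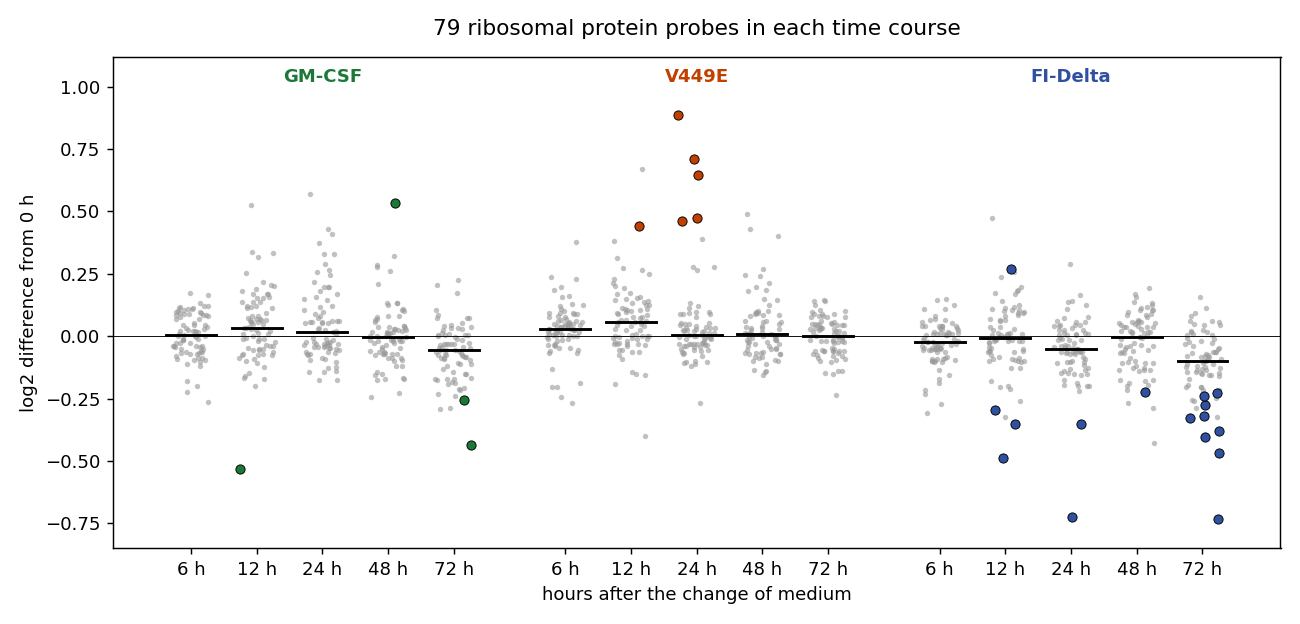
Each point is 1 of the 79 probes, plotted as its log2 difference from 0 h of the same course (parental 0 h for GM-CSF) against hours. Coloured points passed the test and black lines are medians, which lie between -0.10 (FI-Delta 72 h) and 0.06 (V449E 12 h).

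In V449E cells 5 probes rose 24 hours after factor was removed. They were Rps23 and Rps24 of the small subunit and Rpl37a, Rpl19 and Rpl27 of the large. That is 6.33% of the members, against 0.702% of all tested probes that rose, and no member fell, where 0.743% of all probes fell. The median difference of the 79 was 0.0042, against 0.0010 for all probes. At 24 hours the control spots of Rpl19 and Rpl27 did not show the rise. Those of Rpl37a were higher in both replicates, by less than its member probe (0.65). Those of Rpl27 differed by -0.25 and -0.32, against 0.46 on the member probe. The spots of Rpl19 differed by 0.06 and 0.07 and those of Rpl37a by 0.14 and 0.32. None of these spots passed by limma, and Rps23 and Rps24 have no control spot. At 6 hours no member passed in limma (2 higher and 3 lower at an unadjusted p under 0.05, where 0.702% of all probes were called). At 12 hours Rpl37a rose by 0.44 (SE 0.11, adjusted p = 0.043 by limma), where 0.537% of all probes rose, and no member fell, where 0.739% fell (1 was lower at an unadjusted p under 0.05). Without any 1 of the 4 RNAs no member passed.

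Rps23 stood at -0.22 and -0.20 in the 2 RNAs at 0 hours, at 0.42 and 0.51 at 12 hours, at 0.64 and 0.71 at 24 hours, at 0.31 and 0.25 at 48 hours and at 0.08 and -0.35 at 72 hours. The 24-hour values were the highest of all 36 RNAs. The difference at 24 hours was 0.89 (SE 0.18, adjusted p = 0.023 by limma), a 1.85-fold rise. At 12 hours it was 0.67 and did not pass (adjusted p = 0.076). It did pass on print run 1 arrays alone (0.71, adjusted p = 0.024).

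Rps24, mutated in some forms of Diamond-Blackfan anaemia, went from -0.20 and -0.18 to 0.38 and 0.66, a difference of 0.71 (SE 0.12, adjusted p = 0.0064 by limma). Rpl37a, a zinc-finger protein, went from -0.14 and -0.29 to 0.41 and 0.46, a difference of 0.65 (SE 0.11, adjusted p = 0.0059 by limma). In both the 2 RNAs at 24 hours lay above both at 0 hours.

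Rpl19 went from -0.03 and -0.14 to 0.53 and 0.24, a difference of 0.47 (SE 0.12, adjusted p = 0.042 by limma). Rpl27 went from -0.09 and -0.14 to 0.30 and 0.39, a difference of 0.46 (SE 0.09, adjusted p = 0.016 by limma). By 72 hours none of the 5 passed against 0 hours. At 72 hours, as at 48 hours, no member of the family passed by limma (0 higher and 1 lower at an unadjusted p under 0.05 at 72 hours, 6 and 0 at 48 hours). All 79 intervals at 72 hours lay within 0.5 of no difference. Over all probes 1 was called at 48 hours (0.00459%) and 0 at 72 hours.

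**Figure D3:**
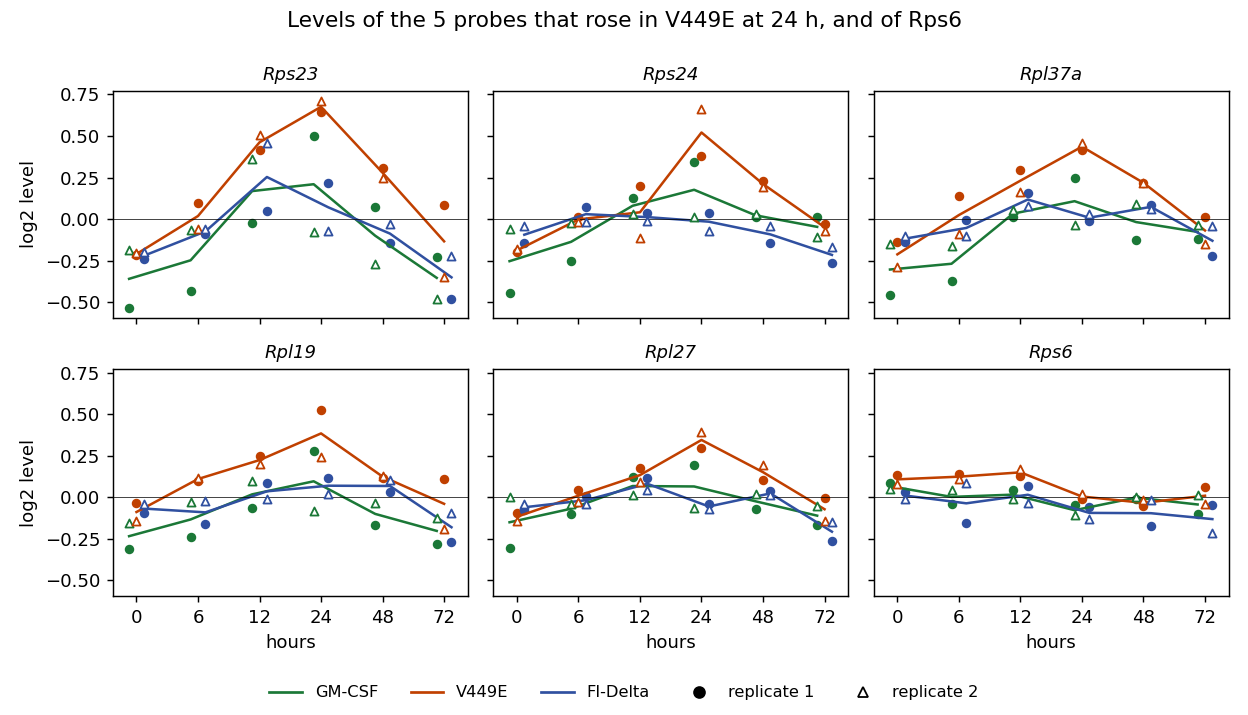
Points are the log2 levels of replicate 1 (filled) and replicate 2 (open) against hours, lines their means, for the GM-CSF (parental at 0 h), V449E and FI-Delta courses. In V449E the 5 genes peak at 24 h, with Rps23 at 0.64 and 0.71, and Rps6, shown for contrast, lies between -0.05 and 0.17.

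These 5 probes tracked each other closely, with pairwise correlations from 0.71 to 0.91 over the 36 levels. They were chosen because they rose together in 1 comparison, so this is a description. The nearest others were Rpl36al, with correlations from 0.71 to 0.78, and Rpl38, from 0.55 to 0.87. Neither passed at 24 hours in V449E cells (0.28 and 0.39). Rps6, the substrate of the S6 kinases, correlated with them between -0.03 and 0.21.

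In the other lines the same 5 were less uniform. In GM-CSF at 24 hours replicate 1 showed differences from 0.50 to 1.03 and replicate 2 from -0.07 to 0.12, with Rps23 at 1.03 and 0.11. The 2 replicates thus did not show the same thing. Replicate 1 of that comparison lies on print run 1 and replicate 2 on print run 2, so print run and replicate cannot be told apart there. None of the 5 passed in GM-CSF at 24 hours (adjusted p from 0.067 for Rpl37a to 0.37 for Rpl27, by limma). In FI-Delta at 24 hours their differences ran from 0.0048 for Rpl27 to 0.29 for Rps23, and none passed.

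Set against each other at 24 hours, V449E cells had higher Rps24 (0.54), Rpl22l1 (0.50), Rpl37a (0.43), Rpl27 (0.40) and Rpl22 (0.26) than FI-Delta cells, with adjusted p from 0.010 to 0.049 by limma, where 1.47% of all probes were higher. The difference of the 24-hour responses themselves, added after the results were seen, passed for no member by limma: V449E minus FI-Delta had 6 members higher and 0 lower at an unadjusted p under 0.05, and V449E minus GM-CSF had 0 and 1. For Rps24 these differences were 0.63 (SE 0.17, adjusted p = 0.51) and 0.28 (SE 0.17, adjusted p = 0.9999, by limma). Over all probes 0.00918% and 0.0459% were called.

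The count of 5 leaned on each RNA. Without either of the V449E RNAs at 0 hours no member passed (replicate 1 or replicate 2 left out), although Rps23 still differed by 0.88 and 0.89. Without the replicate 1 RNA at 24 hours 3 passed, and without the replicate 2 RNA 2 did. Macrophage markers moved at the same time: 3 of the 9 probes, Mpeg1 (1.06), Ctss (1.06) and Cd68 (0.72), rose, and the list averaged 0.22 and 0.27 against -0.24 and -0.15 at 0 hours. No probe of the other 5 cell type lists passed by limma. The part of this in the result was not tested.

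In FI-Delta cells the calls were nearly all falls, and most came at 72 hours. At 72 hours 9 of 79 probes fell (11.4%), against 8.51% of all tested probes, and none rose, where 6.75% of all probes rose (0 members were higher at an unadjusted p under 0.05 by limma). The median difference was -0.10 (replicates -0.10 and -0.12) against 0.0049 over all probes. Of the members 62 of 79 (78.5%) lay below 0, against 48.6% of all probes. In both replicates 54 members were lower, and the share of all probes lower in both is not given here. The share that fell is thus close to the share on the array, while the median of the family lay lower than that of all probes. The small and large subunits had medians of -0.09 and -0.11, and the stalk 0.0052.

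Rpl22l1 had the largest fall. It stood at 0.22 and 0.31 at 0 hours, at -0.20 and -0.25 at 12 hours, at -0.46 and -0.47 at 24 hours, at -0.09 and -0.24 at 48 hours and at -0.51 and -0.43 at 72 hours. The groups at 0 and 72 hours did not overlap, and the difference was -0.73 (SE 0.14, adjusted p = 9.2e-04 by limma), a 1.66-fold fall. It also fell at 12 hours (-0.49) and 24 hours (-0.73). Its paralog Rpl22 fell by 0.23 at 72 hours (adjusted p = 0.031 by limma).

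Rpl4 went from 0.09 and 0.11 to -0.34 and -0.40 (difference -0.47, SE 0.09, adjusted p = 7.8e-04 by limma). Rpl3, which shapes the peptidyl transferase centre, went from 0.07 and 0.04 to -0.23 and -0.32 (difference -0.33, SE 0.06, adjusted p = 9.3e-04 by limma). Rpl11, which binds Mdm2, went from 0.12 and 0.00 to -0.34 and -0.30 (difference -0.38, SE 0.10, adjusted p = 0.013 by limma). In these 3 both RNAs at 72 hours lay below both at 0 hours. The replicate 2 difference of Rpl4 was -0.59 on print run 1 and -0.16 on print run 2.

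Rpl23, another Mdm2-binding protein, differed by probe. Probe 1 went from 0.16 and 0.22 to -0.23 and -0.20 (difference -0.41, SE 0.09, adjusted p = 0.0026 by limma), and was already down by 0.35 at 12 and at 24 hours. Probe 2 stood at 0.03 and -0.14 at 0 hours and at 0.02 and -0.04 at 72 hours. The other 3 that fell at 72 hours were Rps19bp1 (-0.32), Rpl15 (-0.28) and Rps26 (-0.24). The 2 control spots of Rps26 differed by 0.33 and 0.40 and did not pass (adjusted p = 0.41 and 0.28 by limma). Those of Rpl23 (-0.83 and -0.83) and Rpl3 (-0.35 and -0.35) fell. Without the replicate 1 or the replicate 2 RNA at 0 hours, or without the replicate 1 RNA at 72 hours, 5 fell in place of 9.

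**Figure D4:**
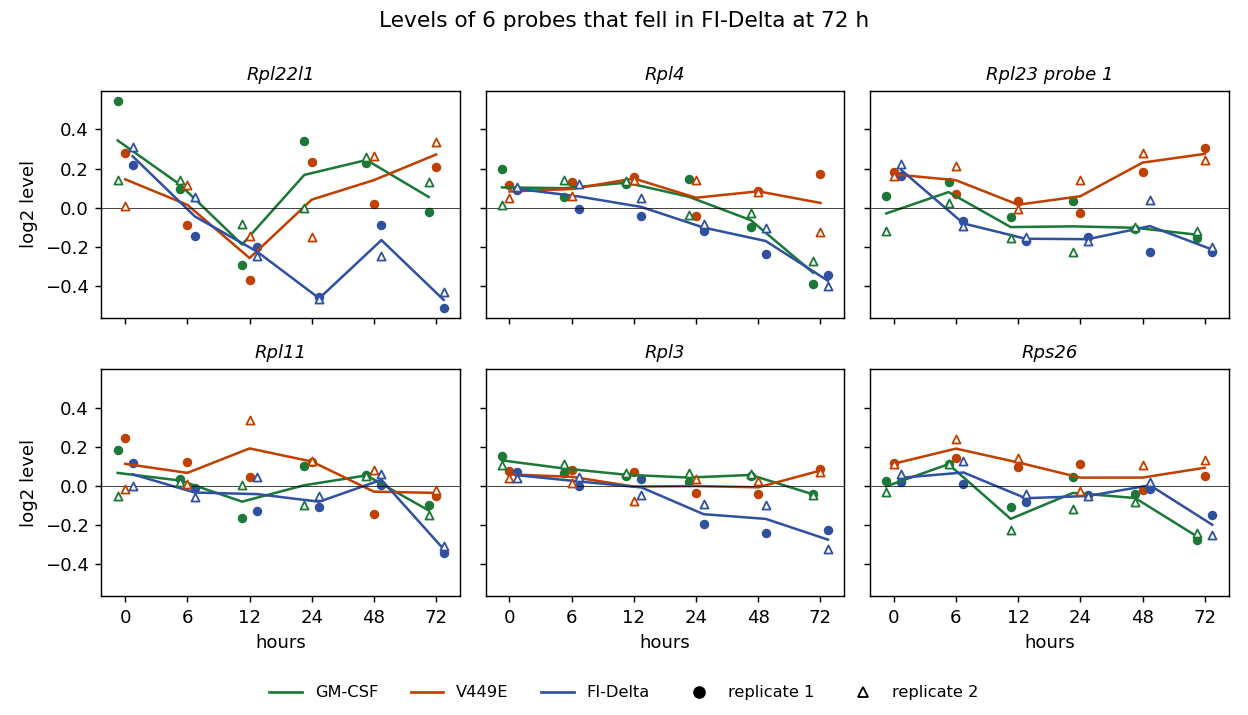
Points are the log2 levels of replicate 1 (filled) and replicate 2 (open) against hours, lines their means, for 6 probes in the GM-CSF (parental at 0 h), V449E and FI-Delta courses. At 72 h the FI-Delta levels of Rpl22l1 (-0.51 and -0.43) and Rpl3 (-0.23 and -0.32) lie below those of both other courses, while Rpl4 and Rps26 are low in GM-CSF too.

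At the earlier times the calls were few. At 6 hours none passed by limma (0 higher and 2 lower at an unadjusted p under 0.05, where 0.725% of all probes were called). At 12 hours Rpl22l1, Rpl23 probe 1 and Rps16 probe 2 (-0.29, of the GenBank series above) fell, where 3.28% of all probes fell, and Rps14 rose by 0.27, where 1.78% rose. At 24 hours Rpl22l1 and Rpl23 probe 1 fell, where 0.509% fell, and at 48 hours Rpl3 did (-0.22), where 2.01% fell.

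Cell type markers moved over the same 72 hours in FI-Delta cells. Of 9 neutrophil granule probes 5 rose and 0 fell (median 1.31), of 9 macrophage probes 6 rose and 1 fell (median 0.62), and of 7 mast cell and basophil probes 0 rose and 4 fell (median -0.70). The neutrophil list averaged 0.13 and 0.64 at 0 hours and 1.45 and 1.99 at 72 hours. Of 11 myeloid progenitor probes 3 rose and 1 fell, and of 4 erythroid and 5 lymphoid probes none passed. The part of these shifts in the ribosomal protein result was not tested.

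The stalk proteins and other members picked for description whatever their values did not pass in FI-Delta at 72 hours, apart from Rpl11, Rpl22, Rpl22l1 and Rpl3 above. As a set they are given for this comparison only. The stalk protein Rplp0 differed by -0.15 and 0.02 on its 2 probes, Rplp1 by 0.09 and Rplp2 by -0.0087, with SEs from 0.09 to 0.11. The laminin receptor gene Rpsa differed by -0.13 and -0.05, Rps6 by -0.14, Rpl5 by -0.16, Rps19, the most often mutated Diamond-Blackfan gene, by 0.06, and Rpl13a by -0.15. Their adjusted p ran from 0.24 to 0.98 by limma. Fau, which encodes a ubiquitin-like protein fused to a small-subunit protein, differed by 0.11 (adjusted p = 0.44 by limma). Among paralogs, Rpl3 fell and Rpl3l did not pass (-0.08), and Rpl36a (-0.13), Rpl36al (-0.25), Rpl7 (-0.12), Rpl7l1 (-0.13), Rpl39 (-0.11), Rpl39l (-0.10), Rps4x (-0.09) and Rps4l (-0.11) did not pass either. Nor did Rps27l.

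The design also compares the lines at matched times. At 0 hours no member differed by limma between V449E and parental cells (2 higher and 0 lower at an unadjusted p under 0.05, where 0.734% of all probes were called), between FI-Delta and parental cells (1 and 0, where 0.106% were called) or between V449E and FI-Delta cells (0 and 0, where 0.225% were called). The values furthest from 0 against parental cells were Rpl23 probe 1 (0.20), Rpl22l1 (-0.20) and Rps7 (0.18) in V449E, and Rpl23 probe 1 (0.22), Rpl38 (0.21) and Rpl35 (0.20) in FI-Delta. Most members lay slightly above 0 against parental cells. In V449E these were 63 of 79 (median 0.05, replicates 0.09 and 0.03), and in FI-Delta 55 of 79 (median 0.055, replicates 0.04 and 0.05). The medians over all probes were -4e-04 and 0.0011. Below 0 lay 50.2% and 49.4% of all probes, against 20.3% and 30.4% of the members. With levels weighted by the precision of their arrays, 8 members were higher in V449E than in parental cells.

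FI-Delta and GM-CSF cells did not differ in any member at any of the 5 times by limma. At 72 hours 0 were higher and 2 lower at an unadjusted p under 0.05, where 0.885% of all probes were called, and 78 of 79 intervals lay within 0.5 of no difference. The widest was Rpl22l1, at -0.51 and -0.43 in FI-Delta against -0.02 and 0.13 in GM-CSF (difference -0.53, SE 0.14, adjusted p = 0.076 by limma), followed by Rpl3 (-0.23, adjusted p = 0.084) and Rpl11 (-0.20, adjusted p = 0.48). At 6, 12, 24 and 48 hours 0.491%, 0.307%, 0.174% and 0.289% of all probes were called, and at an unadjusted p under 0.05 the members numbered 0 higher and 3 lower, 0 and 1, 1 and 4, and 3 and 4. The difference of the 2 lines' 72-hour responses passed for no member (0 higher and 2 lower at an unadjusted p under 0.05, where 0.00459% of all probes were called).

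V449E and FI-Delta cells, both without factor, differed in the most members at 72 hours. V449E cells had higher levels of 11 of 79 probes (13.9%) and lower levels of none, against 9.02% of all probes that were higher and 7.65% that were lower (0 members were lower at an unadjusted p under 0.05). The median difference was 0.11 (replicates 0.13 and 0.07). The 6 widest, each with V449E first, were Rpl22l1 (0.21 and 0.34 against -0.51 and -0.43, difference 0.74), Rpl23 probe 1 (0.31 and 0.25 against -0.23 and -0.20, difference 0.49), Rps2 (0.40), Rpl4 (0.40), Rpl36al (0.37) and Rpl3 (0.35). Adjusted p ran from 3.4e-04 for Rpl3 to 0.035 for Rps2 by limma. The other 5 were Rpl15, Rps26, Rpl22, Rpl10 and Rpl7, from 0.18 to 0.33. Probe 2 of Rpl23 did not pass, and its mean level in V449E cells at 72 hours was -0.05. Of the 9 neutrophil granule probes 8 were lower in V449E cells and 0 higher (median -2.57). The neutrophil list already differed at 0 hours, with averages of -1.73 and -0.61 in V449E against 0.13 and 0.64 in FI-Delta. At 72 hours the mast cell and basophil list averaged 0.33 and 0.30 against -0.78 and -0.76 (4 of 7 probes higher, 0 lower), and the macrophage list -0.06 and 0.10 against 0.45 and 0.50 (2 of 9 higher, 5 lower). Of 11 progenitor probes 2 were higher and 3 lower, of 4 erythroid probes 1 and 1, and of 5 lymphoid probes none passed. The part of these in the result was not tested.

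Leaving out the replicate 1 RNA of either line gave 6 probes and leaving out the replicate 2 RNA of either gave 7. At 6 and 12 hours none differed by limma (5 higher and 0 lower at an unadjusted p under 0.05 at both times, where 0.817% and 1.11% of all probes were called), and at 48 hours Rpl23 probe 1 was higher (0.32), where 3.69% of all probes were. The 72-hour responses, each against its own 0 hours, differed between V449E and FI-Delta for 3 members, Rpl22l1 (0.86, SE 0.20), Rpl23 probe 1 (0.51, SE 0.13) and Rpl3 (0.35, SE 0.09), where 2.18% of all probes were higher. Those of V449E and GM-CSF differed for none by limma, where 0.629% of all probes were called. At an unadjusted p under 0.05, 6 members were higher and 0 lower. Probe 2 of Rpl23 passed in neither comparison of responses.

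Other lists of the translation machinery, among them the factors that assemble these proteins into ribosomes, are set beside the family as a description. In FI-Delta at 72 hours 31 of 52 ribosome assembly probes fell and 1 rose (median -0.40), led by the box C/D particle protein Nop56 (-1.37), with Utp4, Nop16 (-0.90) and Wdr43 (-0.84). Of 40 probes for translation factors and other oligopyrimidine messages 23 fell and 0 rose (median -0.28), with Npm1 at -0.81 and Eif6 at -0.59. Npm1 and Eif6 are on the assembly list too, so these lists overlap. Of 17 probes for RNA polymerase I and its factors 8 fell and 1 rose (median -0.13), with Polr1b at -0.82. Of 72 probes for mitochondrial ribosomal proteins 23 fell and 0 rose (median -0.20), with Mrpl46 and Mrps28 both at -0.62. The cytosolic family had 9 of 79 and a median of -0.10. Over all tested probes 8.51% fell and 6.75% rose. The differences between lists were not tested.

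**Figure D5:**
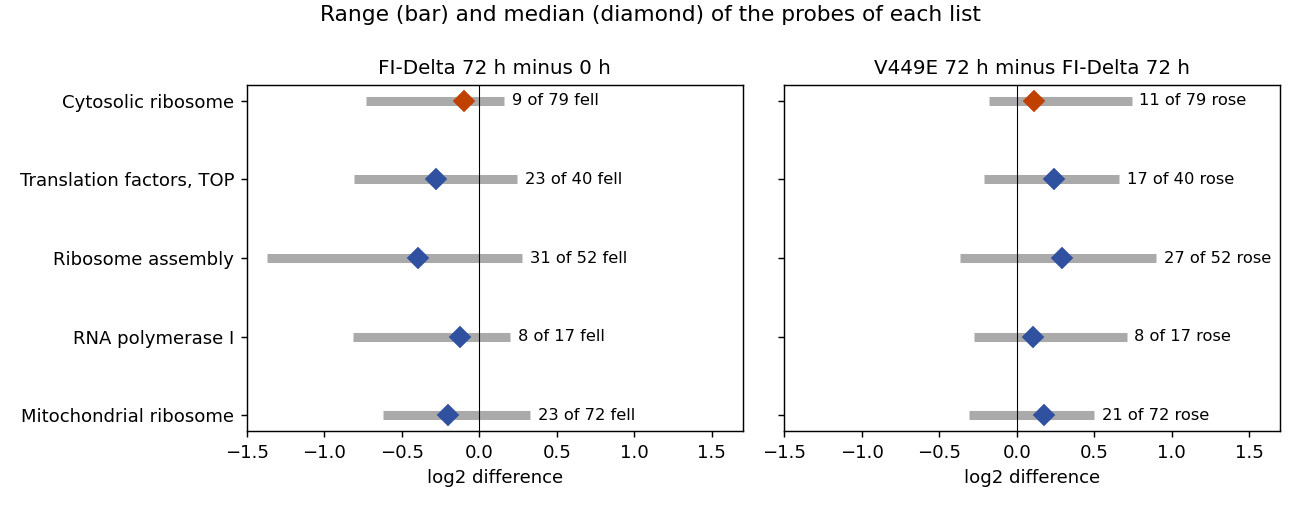
Bars span the lowest to the highest log2 difference of the probes in each list and diamonds mark the median, for FI-Delta at 72 h against 0 h (left) and V449E against FI-Delta at 72 h (right). The cytosolic ribosome has medians of -0.10 and 0.11, and ribosome assembly -0.40 and 0.29.

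After 72 hours in GM-CSF 23 of 52 assembly probes fell and 0 rose (median -0.31), 7 of 40 translation factor probes fell, 4 of 17 polymerase I probes fell, and 5 of 72 mitochondrial ribosomal probes fell. There 2.55% of all probes fell and 2.92% rose. In V449E cells at 12 hours, when Rpl37a rose, 7 of 52 assembly probes fell (median -0.21), with Nop58 at -0.54, where 0.739% of all probes fell. At 24 hours, when the 5 members rose, 1 assembly probe, Ddx10, fell, where 0.743% of all probes fell. At 72 hours none of the 4 lists had a call by limma, nor did any other probe of the array. Between V449E and FI-Delta at 72 hours 27 assembly probes were higher and 2 lower (median 0.29), and 17 of 40 translation factor probes were higher. Of all probes 9.02% were higher and 7.65% lower.

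Regulators of the pathway gave a mixed picture in FI-Delta at 72 hours, where 8.51% of all probes fell and 6.75% rose. These lists are short, and whether their counts differ from those shares was not tested. In the Myc network, whose target genes include many for ribosome production, 2 of 11 probes rose, the antagonists Mxd1 (1.21) and Mxi1 (0.43), and 2 fell, Myc (-0.59) and Mga (-0.49). Myc also fell in V449E at 12 hours (-0.63). In the mTORC1 and S6 kinase list 2 of 16 fell, Larp1 (-0.68), which binds the oligopyrimidine tract, and Eif4e (-0.60), and Rps6ka3 rose (0.23). Of 13 p53 target probes 3 rose and 0 fell, Btg2 (1.00), Trp53inp1 (0.80) and Gtse1 (0.44).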

How the data were processed

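The deposited table holds log2 ratios of Cy5 over Cy3 (read as such, since neither base nor direction is stated), which the authors normalised before deposit and put in 1 spot order, per the labels. The submitters' processing notes name limma without a version. The normalisation method is not given in the sources used here. Signal intensities were not used, so signal over background is unknown. The precision of a difference rests on 2 RNAs per condition. Of 23040 spots, 1243 controls were left out and 21797 probes tested. Dye-swap pairs were averaged with one sign turned, and least squares within a replicate gave 36 levels. Differences were tested with limma 3.58.1 (R 4.3.3, lmFit and eBayes, condition plus replicate block, 17 residual degrees of freedom, 2-sided, Benjamini-Hochberg over 21797 probes, threshold 0.05) and the fit was tested on simulated data. Every array holds RNAs of 1 replicate number, so levels exist only within a replicate. Of the 71 symbols, 70 were matched by Entrez identifier. Named members were up to 6 of the largest rises and falls past the threshold in 8 comparisons, or the 3 largest differences where fewer than 3 passed, with stalk proteins, disease genes and paralogs always given, and up to 4 genes of each other list. Calls outside those 8 comparisons, and values given to show contrast, were chosen after their values were seen. Members and lists were chosen with earlier results of these data known.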

Additional observations from a re-analysis of the deposited data

Results flagged for a closer look

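The 72-hour responses of V449E and FI-Delta cells, both without factor, differed in 3 ribosomal protein probes by a test of the difference itself: Rpl22l1 by 0.86 (adjusted p = 0.018), Rpl23 probe 1 by 0.51 (adjusted p = 0.025) and Rpl3 by 0.35 (adjusted p = 0.032), all by limma on the log2 scale, with V449E higher in both replicates.

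Control spots outside the tested probes carry the symbols of 24 members, and 15 of them passed when they were added to the limma fit. In V449E cells at 24 hours the 2 spots of Rps2 rose by 1.30 and 0.85, while the Rps2 member probe differed by -0.04, and the 2 spots of Rpl38 rose by 0.59 and 0.53, where the member differed by 0.39. In FI-Delta cells at 72 hours a spot of Rpl13 rose by 0.59 and a spot of Rpl38 by 0.43. In the same comparison the spots that fell were those of Rpl23 (-0.83 and -0.83), Rpl8 (-0.46 and -0.59), Rps3 (-0.44), Rps3a1 (-0.33 and -0.36), Rpl3 (-0.35 and -0.35) and Rpl27 (-0.32). The sequences on these spots were not analysed here.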

How the results depend on the processing

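Of 306 alternative counts 258 stayed within 1.5 times, and of 158 alternative medians 133 moved by less than the spread between replicates. The 2 falls in GM-CSF at 72 hours became 0 with direct dye-swap pairs only, 1 with arrays scaled to one median absolute deviation, and 0 with the first-named condition in Cy5 only. The 9 falls in FI-Delta at 72 hours became 15 with levels weighted by precision, 4 with scaled arrays, 3 with the first-named condition in Cy5 only and 5 with it in Cy3 only. The 1 rise in V449E at 12 hours became 3 when weighted, 5 with direct pairs only, 2 on print run 1 alone and 0 with Cy5 only, and the 5 rises at 24 hours became 2 and 3 with one dye orientation. The 0 rises at 0 hours became 8 in V449E and 1 in FI-Delta when weighted. The 11 higher in V449E than in FI-Delta at 72 hours became 7 when weighted, 3 with direct pairs only, 7 with scaled arrays, and 5 and 6 with one dye orientation. Without each RNA in turn these counts ran from 0 to 1 (GM-CSF 72 hours), 5 to 7 (FI-Delta 72 hours), 0 to 0 (V449E 12 hours), 0 to 3 (V449E 24 hours) and 6 to 7 (V449E against FI-Delta at 72 hours). With control spots counted too, an alternative added after seeing the data, GM-CSF at 72 hours had 2 rises and 6 falls, FI-Delta 2 and 19, V449E at 12 hours 3 and 2, V449E at 24 hours 9 rises, and V449E against FI-Delta at 72 hours 25 higher and 3 lower.

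Without the replicate block no count moved by over 1.5 times: FI-Delta at 72 hours kept a count of 9 falls, and V449E against FI-Delta had 12 in place of 11. Signs turned for values that had not passed. These were Rpl22l1 in V449E against parental at 0 hours with 1 RNA left out (-0.411 to 0.0145, the latter without parental 0h replicate 1), Rpl38 in FI-Delta against parental at 0 hours on print run 2 (-0.0114), the median of V449E against parental at 0 hours with Cy5 only (-0.0015), and the median of FI-Delta against GM-CSF at 72 hours with direct pairs only (-0.0011), on print run 2 (-0.045) and with Cy5 only (-0.0043). The cause was not tested in any of these. Print run 2 alone gives values of replicate 2 without a test, except for V449E against parental at 0 hours, where it holds both replicates. A limma test of that comparison, added after seeing the data, called no member (16 higher and 0 lower at an unadjusted p under 0.05, median 0.09). Leaving out the 9 paralog, retroposed copy and binding protein symbols, also added later, left 7 falls in FI-Delta and 9 higher in V449E at 72 hours.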
